A study of Mus musculus with 8 samples.

Results

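Genes that make fatty acids, build triglyceride and hold it in lipid droplets were followed in cultured mouse hepatic stellate cells, the retinoid- and fat-storing pericytes of the liver. The 10 genes, chosen by gene symbol, were the desaturase genes Scd1 and Scd2, the fatty acid synthase gene Fasn, the acyltransferase genes Dgat1 and Dgat2, the droplet coat gene Plin2, the uptake and binding genes Lpl, Cd36 and Fabp4, and the regulator gene Pparg. All 10 had a probe, 12 probes in all, of the 25697 probes and 16593 named genes on the array. The samples were primary stellate cells at passage 0 from IL15Ra-knockout mice (4 samples) and from wild-type control mice (4 samples), both of strain B6/129 and bought at 6 weeks of age, with 1 Illumina MouseRef-8 v2.0 array per sample. Cells of both genotypes were released with pronase and collagenase, separated on Percoll and grown in serum-containing medium. The interleukin-15 receptor alpha chain, which the knockout lacks, binds interleukin-15 and presents it to nearby cells. The labels name no animal for any sample, and the p-values therefore reflect variation among the 8 samples alone, part or all of which may be technical.

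Quiescent stellate cells store retinyl esters together with triglyceride in droplets, and lose these droplets as they turn into myofibroblasts in injury or in culture. Fatty acids reach the droplet by synthesis, in which acetyl-CoA carboxylase and fatty acid synthase act before the desaturases, or by uptake, for which lipoprotein lipase frees fatty acids from lipoproteins and Cd36 takes them in. Dgat1 and Dgat2 add the last acyl chain of triglyceride, Plin2 coats the droplet, and the nuclear receptor encoded by Pparg promotes fat storage and is linked to the quiescent state. Several of these genes, among them Lpl, Cd36 and Pparg, are also used by macrophages.

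Before the lipid genes, the arrays themselves were compared. Median signal ranged from 113.6 to 149.8 per array and the number of probes above background, with a detection p under 0.05, from 6760 on control 3 to 10516 on knockout 2. Knockout 1, knockout 4 and control 3 had the fewest, and the leading principal component (78.2% of variance) set these 3 arrays off from the other 5. The 4 probes of Il15ra were above background on 0 arrays, so the targeted gene checks no label. The mice are labelled female, yet the Y-linked genes Eif2s3y, Kdm5d and Uty were above background on all 8 arrays and Xist on 0. Their summed signal was between 2339 and 2623 units in the knockout and between 2767 and 3500 in the control samples, and without Eif2s3y, which had a difference of -0.29 on the log2 scale (limma adjusted p = 0.835), the sums overlapped. Of 14 macrophage markers with a probe, 12 were above background on all 8 arrays, among them Adgre1, Lyz2 and Laptm5, with a summed signal between 57953 and 72783 units in the knockout and between 58284 and 77436 in the control samples. Of 13 stellate cell markers, Des, Reln, Acta2, Col1a2 and Col3a1 were above background on all 8 arrays, while Lrat, Gfap, Ngfr, Hhip and Rgs5 were on 0, and the summed signal was between 42668 and 45286 units in the knockout and between 32563 and 39949 in the control samples. On this list 2 genes passed the adjusted threshold described below, in opposite directions, with Col1a2, a fibrillar collagen gene, 1.84 higher in the knockout on the log2 scale (limma adjusted p = 0.00478) and Reln, the reelin gene, at -1.61 (limma adjusted p = 0.0289). The other fibrillar collagen genes of the list, Col1a1 and Col3a1, were at 0.055 and -0.21, with standard errors of 0.81 and 0.17. Without Col1a2 the sums overlapped, from 28766 to 31521 in the knockout and from 29693 to 35764 in the control samples. All 5 fat cell markers with a probe, Adipoq, Retn, Lep, Plin1 and Cidec, were on 0 arrays, as were 6 of 9 hepatocyte markers, Alb among them. Beside those of the stellate cell and Y-linked lists, the summed signal of dendritic cells and MHC class II did not overlap between the genotypes. It was between 1463 and 2148 units in the knockout and between 14637 and 31602 in the control samples. Of its 8 genes, 3 passed the adjusted threshold, the MHC class II genes H2-Aa, H2-Ab1 and H2-Eb1, at -3.24, -4.56 and -5.11. Of its dendritic cell genes, Flt3 was above background on 0 arrays, Zbtb46 on 3 and Itgax on 4. Itgax was at -1.14 (limma adjusted p = 0.913). Endothelial markers, 6 of 11 above background on all 8 arrays, summed to between 2761 and 5700 units in the knockout and between 4656 and 8574 in the control samples. Mesothelial and bile duct markers, 3 of 6 on all 8 arrays, summed to between 5683 and 8570 and between 4097 and 6088 units, and lymphocyte markers were on all 8 for 0 of 6 genes, with sums between 198 and 408. The part of these cell types in the differences below was not tested. Each value is for a whole culture, in which fewer cells of a type and less RNA per cell cannot be told apart.

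Values below are normalised signals on the log2 scale, after background correction and quantile normalisation with an added offset of 16 units, which draws the folds of dim probes towards 1. Knockout and control samples were compared on 9433 probes, those above background on at least 4 of the 8 arrays, with limma and Benjamini-Hochberg adjustment over all of them. Scd1, Lpl, Cd36 and Pparg were above background on all 8 arrays. Fasn, Dgat2 and Plin2 were above background on some, and Scd2, Dgat1 and Fabp4 on none. Of the 10 genes 6 were kept for testing, and 0 of these passed an adjusted p of 0.05, where 50 of all kept probes (0.530%) did. At an unadjusted p under 0.05, 1 gene, Scd1, was higher in the knockout samples, where 4.10% of all kept probes were higher, and 0 were lower, where 2.21% of all kept probes were. The count of 50 over all probes lay between 15 and 22 without any 1 of the arrays other than control 3, and was 112 without control 3. With array weights, 4 of the genes (Scd1, Dgat2, Lpl and Cd36) passed, but so did 38.5% of all kept probes, and the estimate of the weights stopped before it converged, with a weight of 36.8 for knockout 3 against 0.108 to 5.55 for the other 7 arrays.

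**Figure D1:**
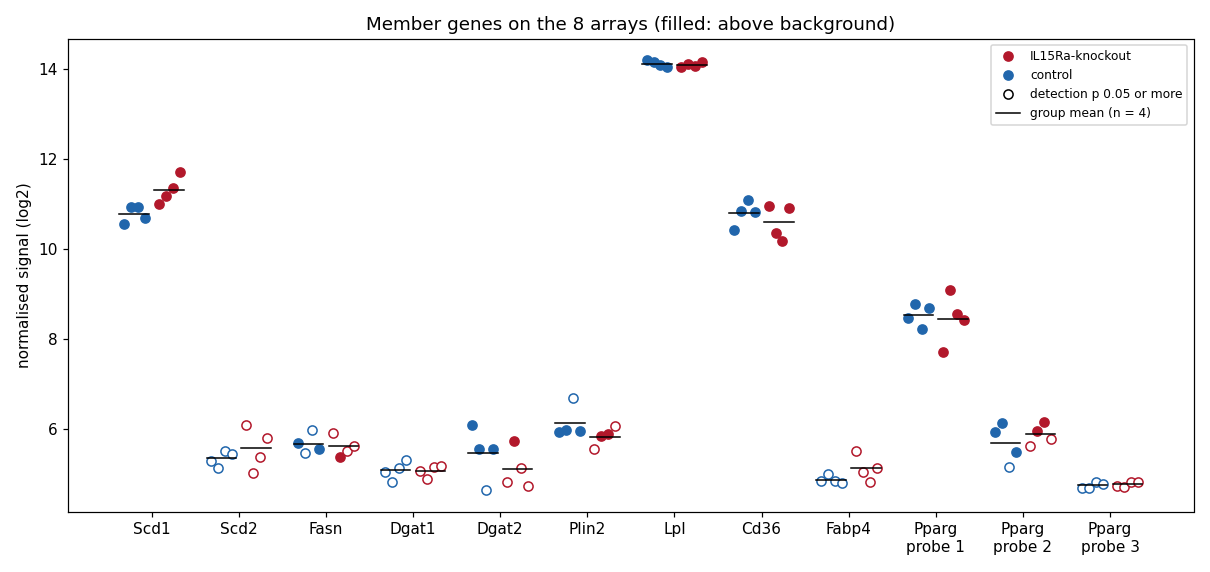
Normalised signal (log2) of the 12 probes of the 10 genes, 1 point per array, blue for control and red for IL15Ra-knockout, with a line at each group mean (n = 4). Filled points are above background and open points are not. The knockout and control points of Scd1 do not overlap, those of Lpl lie between 14.04 and 14.19, and those of Scd2, Dgat1 and Fabp4 are open on every array.

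Among the synthesis genes, Scd1, the desaturase that turns saturated into monounsaturated fatty acids, was 1.45-fold higher in the knockout than in the control samples. Its signal was 11.002, 11.18, 11.36 and 11.71 on knockout arrays 1 to 4, and 10.54, 10.92, 10.94 and 10.68 on control arrays 1 to 4. The lowest knockout value lay above the highest control value (11.002 against 10.94), and the same was true of 3.12% of all kept probes. Unnormalised, the knockout signals were 1707.5, 2167.6, 2571.9 and 3414.9 units on arrays 1 to 4. The unnormalised control signals were 1679, 2029.7, 2323.8 and 2244.5 units, and the groups overlapped. The normalised means were 11.31 ± 0.30 in the knockout and 10.77 ± 0.19 in the control samples (SD, n = 4 each), a difference of 0.54 with a standard error of 0.19 and a 95% interval from 0.10 to 0.98. The interval is not adjusted for the number of probes, and the limma adjusted p was 0.537, with Scd1 in place 362 of 9433 by p. The unadjusted p was 0.0207, and was 0.0514 without knockout 3, 0.0682 without knockout 4 and 0.0630 without control 1. With each array's count of detected probes in the model the difference was 0.53 with a standard error of 0.16 (limma adjusted p = 0.0715). In that fit 670 of all kept probes passed an adjusted p of 0.05, against 50 in the main fit. Without knockout 1, knockout 4 and control 3 the difference of Scd1 was 0.53 with a standard error of 0.16 (limma adjusted p = 0.229), and 115 of all kept probes passed.

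**Figure D2:**
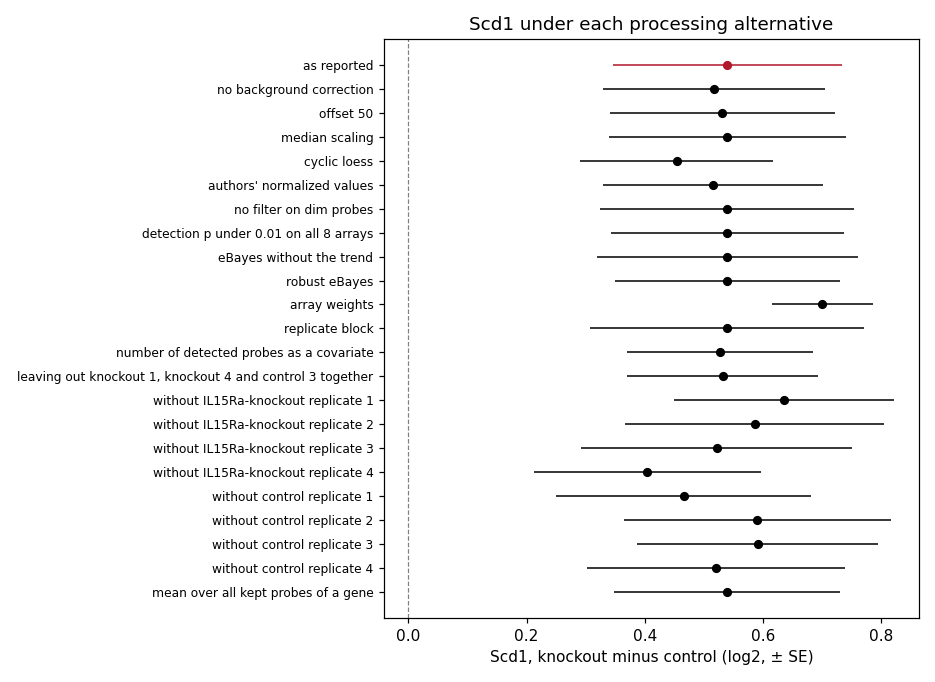
Difference of Scd1 between knockout and control samples (log2) under each processing alternative, with bars of 1 standard error and the reported value in red. All values lie to the right of 0, between 0.40 without knockout 4 and 0.70 with array weights.

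Scd2, which encodes another desaturase of the same kind, was not above background on any array, with detection p-values between 0.0526 and 0.163 and unnormalised signals between 114.2 and 182.5 units. Normalised, it lay between 5.02 and 6.08 in the knockout and between 5.13 and 5.51 in the control samples, and the groups overlapped. Fasn, which encodes the enzyme that builds palmitate, was above background on knockout 2, control 1 and control 4, with detection p-values between 0.0226 and 0.109 over the 8 arrays. Its signal was 5.92, 5.38, 5.51 and 5.63 on knockout arrays 1 to 4 and 5.68, 5.45, 5.97 and 5.56 on control arrays 1 to 4, again overlapping. Neither gene was tested, since neither reached 4 arrays above background. A signal at background on 1 probe does not show that the transcript is absent.

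For triglyceride assembly, Dgat1 was at background on all 8 arrays, between 4.89 and 5.17 in the knockout and between 4.83 and 5.31 in the control samples. Dgat2, which encodes the other enzyme of the last acylation step, was above background on 1 knockout and 3 control arrays and was therefore just kept. Its signal was 4.81, 5.73, 5.12 and 4.74 on knockout arrays 1 to 4 and 6.09, 5.56, 4.64 and 5.56 on control arrays 1 to 4. The groups overlapped, and the difference was -0.36 with a standard error of 0.35 and a 95% interval from -1.16 to 0.44 (limma adjusted p = 0.913). The low values were those of knockout 1, knockout 4 and control 3, between 4.64 and 4.81, against 5.12 to 6.09 on the other 5 arrays, so Dgat2 followed the number of detected probes. Without control 3 the difference was -0.67 (limma adjusted p = 0.220), and without background correction it was -0.14.

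Plin2, the droplet coat protein whose level usually tracks stored lipid, was above background on 2 knockout and 3 control arrays. Its signal was 5.55, 5.83, 5.88 and 6.06 on knockout arrays 1 to 4 and 5.92, 5.97, 6.69 and 5.96 on control arrays 1 to 4. Control 3 was the highest of the 8, although its detection p there was 0.0514, and the other 3 control values lay between 5.92 and 5.97. The groups overlapped, with a difference of -0.31, a standard error of 0.27 and a 95% interval from -0.92 to 0.31 (limma adjusted p = 0.913). Without control 3 the difference was -0.13 (limma adjusted p = 0.702), and without background correction it was -0.12.

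In uptake and binding, Lpl, which encodes the lipase that frees fatty acids from circulating lipoproteins, was above background on all 8 arrays. It lay at 14.05, 14.11, 14.07 and 14.15 on knockout arrays 1 to 4 and at 14.19, 14.15, 14.08 and 14.04 on control arrays 1 to 4. The difference was -0.020 with a standard error of 0.071 and a 95% interval from -0.18 to 0.14 (limma adjusted p = 0.951), and its direction turned under median scaling, at 0.28. The standard error of Lpl was 0.17 with median scaling, 0.20 with cyclic loess and 0.16 without the trend on intensity. The narrow interval thus depends on the normalisation and the variance model. From 2 probes on control 1 to 20 on control 4 were brighter than Lpl. The unnormalised Lpl signal was between 86.2% and 97.9% of the highest signal on the same array, and whether the top of the scale limited the difference was not tested. Cd36, the fatty acid translocase gene, lay at 10.95, 10.35, 10.19 and 10.92 on knockout arrays 1 to 4 and at 10.43, 10.85, 11.09 and 10.82 on control arrays 1 to 4. The groups overlapped, with a difference of -0.19, a standard error of 0.24 and a 95% interval from -0.73 to 0.34 (limma adjusted p = 0.913). Cd36 was higher on knockout 1, knockout 4 and control 3 (10.92 to 11.09) than on the other 5 arrays (10.19 to 10.85). Without these 3 arrays its difference was -0.39 with a standard error of 0.18 (limma adjusted p = 0.437). With 1 array left out it ranged from -0.32 without control 1 to -0.055 without knockout 3, and was -0.11 without knockout 2 and -0.094 without control 3. It was also over 1.5 times the value above without knockout 1 (-0.30) and without knockout 4 (-0.30). Fabp4, the fatty acid binding protein gene of fat cells, macrophages and capillary endothelium, was above background on 0 arrays, with knockout samples at 5.12 ± 0.29 and control samples at 4.87 ± 0.084 (SD, n = 4 each). Its lowest detection p was 0.102, on knockout 1.

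Pparg, the nuclear receptor gene that drives fat storage, had 3 probes that differed in detection. The first was above background on all 8 arrays, at 7.71, 9.09, 8.55 and 8.43 on knockout arrays 1 to 4 and at 8.46, 8.78, 8.23 and 8.70 on control arrays 1 to 4. The knockout values enclosed all the control values, and the difference was -0.09 with a standard error of 0.33 and a 95% interval from -0.84 to 0.66 (limma adjusted p = 0.952). The second probe, above background on 5 arrays, gave a difference of 0.20 with a standard error of 0.28 (limma adjusted p = 0.913), and the third was above background on none, so the probes gave no common direction. Without knockout 1 the difference on the first probe turned to 0.15. On that probe knockout 1, knockout 4 and control 3 held the lowest values, between 7.71 and 8.43, against 8.46 to 9.09 on the other 5 arrays.

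**Figure D3:**
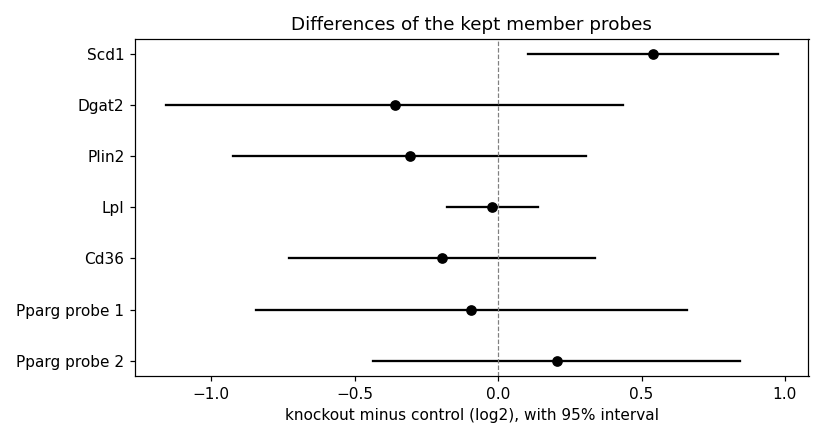
Difference between knockout and control samples (log2, points) with its 95% interval (lines) for the 7 kept probes of 6 genes, without adjustment for the number of probes. The interval of Scd1 runs from 0.10 to 0.98 and those of the other 6 probes include 0. That of Lpl, from -0.18 to 0.14, is the narrowest, and its standard error is larger with median scaling and cyclic loess.

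**Figure D4:**
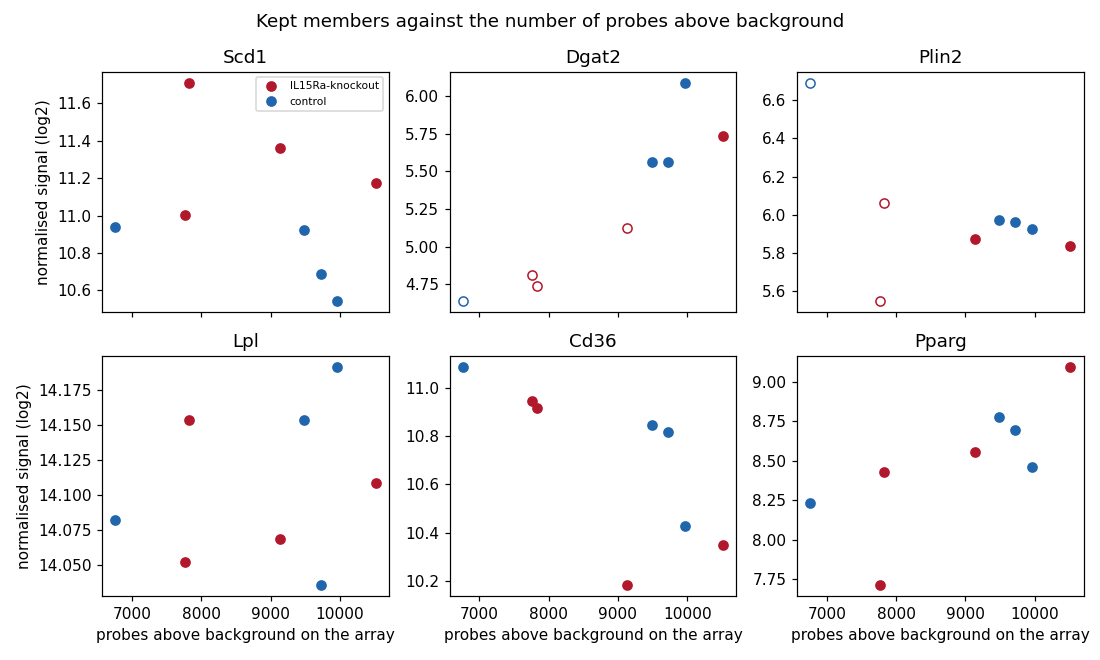
Normalised signal (log2) of the 6 kept genes against the number of probes above background on each array, blue for control and red for IL15Ra-knockout, filled where the gene is above background on that array. Dgat2 and Pparg are lowest and Cd36 highest on the 3 arrays with the fewest detected probes. The red and blue Scd1 points do not overlap, the closest being 11.002 on knockout 1 and 10.94 on control 3.

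Promoter windows of 4 of the 10 genes (Fasn, Plin2, Cd36 and Pparg) were held in the RefSeq table of build GRCm38.p6, 6 windows in all, each from 250 bases before to 50 after an annotated start. They were searched on both strands for AGGTCA, the core of the sites that Pparg and other nuclear receptors bind, for the E-box CACGTG and its variant CATGTG, for CCAAT, and for the TATA-box letters TATAAA. Of the 6 windows 4 held AGGTCA, those of Plin2 and Cd36 and 2 of the 3 of Pparg, against 16.3% of all 32851 windows. CCAAT was found in 5 of the 6 against 37.4%, CACGTG in 1 (Plin2) against 7.15%, TATAAA in 1 (Pparg) against 13.6%, and CATGTG in 0 against 14.2%. Windows of 3 genes are shown since Pparg itself was detected on all arrays here, as was Cd36, while Plin2 was on 5 and Fasn on 3, with Cd36 and Plin2 being textbook Pparg targets and Fasn a target of the sterol-regulated factors. Capitals mark any match, on either strand, and in Fasn matches to CCAAT on opposite strands overlap. The matches are a description of these letters and not evidence of binding.
Cd36 (chr5:17835847-17836146, minus strand): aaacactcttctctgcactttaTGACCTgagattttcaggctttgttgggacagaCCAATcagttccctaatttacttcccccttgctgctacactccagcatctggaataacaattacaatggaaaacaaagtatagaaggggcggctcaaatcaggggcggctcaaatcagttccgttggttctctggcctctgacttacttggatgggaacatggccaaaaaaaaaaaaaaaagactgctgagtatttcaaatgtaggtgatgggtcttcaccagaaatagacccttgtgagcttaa
Plin2 (chr4:86670010-86670309, minus strand): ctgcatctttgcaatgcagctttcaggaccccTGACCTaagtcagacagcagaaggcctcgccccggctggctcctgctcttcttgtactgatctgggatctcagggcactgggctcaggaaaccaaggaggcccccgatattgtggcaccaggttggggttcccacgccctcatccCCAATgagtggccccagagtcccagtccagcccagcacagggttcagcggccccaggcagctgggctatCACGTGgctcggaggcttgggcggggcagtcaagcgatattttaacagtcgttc
Fasn (chr11:120824498-120824797, minus strand): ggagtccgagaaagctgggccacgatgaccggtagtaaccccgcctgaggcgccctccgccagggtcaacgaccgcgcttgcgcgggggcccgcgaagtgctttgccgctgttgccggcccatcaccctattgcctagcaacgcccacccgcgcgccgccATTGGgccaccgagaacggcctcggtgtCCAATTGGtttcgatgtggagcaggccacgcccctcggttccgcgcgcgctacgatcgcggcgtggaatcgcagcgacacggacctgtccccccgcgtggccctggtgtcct

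The wider pathway was read from 6 lists with 88 genes, 81 of them with a probe and 52 kept, the 6 genes above included. None of the 52 passed an adjusted p of 0.05 by limma, 3 (5.77%) were higher and 3 (5.77%) lower at an unadjusted p under 0.05, where 4.10% and 2.21% of all kept probes were, and their median difference was 0.0075 against 0.033 over all 9433 kept probes. Fatty acid synthesis genes had 12 of 14 kept genes above 0, where 53.2% of all kept probes were, and a median of 0.25. For the 12 of these genes above background on all 8 arrays, 10 (83.3%) lay above 0 and the median was also 0.25. Over the 6093 probes above background on all 8 it was 0.11, and 62.8% of them lay above 0. Under the same filter, read on the probe that represents each gene, the median was 0.23 for triglyceride assembly (4 genes). It was 0.11 for droplet coat and lipolysis (8) and 0.075 for oxidation (4). For uptake and binding it was -0.012 (6 genes) and for the regulators -0.011 (5). The synthesis list had 2 higher (Scd1 and Acaca) and 1 lower (Insig1) at an unadjusted p under 0.05. Acaca, which encodes the carboxylase that makes malonyl-CoA, lay between 10.19 and 10.69 in the knockout and between 9.42 and 10.36 in the control samples, a difference of 0.69 with a standard error of 0.26 (limma adjusted p = 0.584). Fads1, the delta-5 desaturase gene of polyunsaturated fatty acids, had a difference of 0.33 with a standard error of 0.15. Insig1, which holds the sterol-regulated transcription factors in the endoplasmic reticulum, lay between 8.66 and 9.57 in the knockout and between 9.18 and 10.68 in the control samples. Its difference was -0.97 with a standard error of 0.35 on this probe (limma adjusted p = 0.551), while its other kept probes gave 0.45 and 0.23. The regulator genes Srebf1, Mlxipl and Thrsp were above background on 0 arrays.

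**Figure D5:**
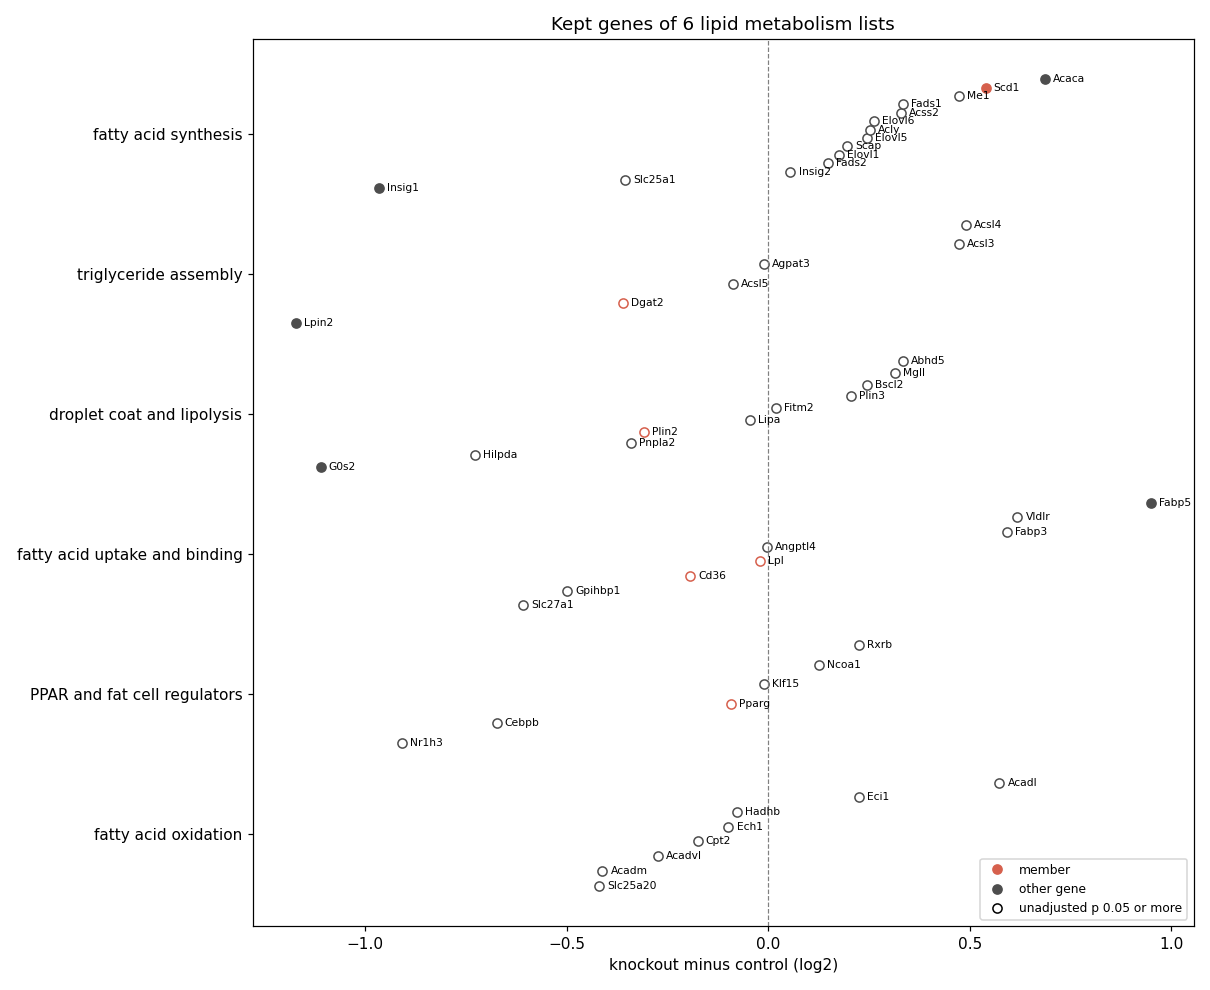
Difference between knockout and control samples (log2) of each kept gene of the 6 lists, 1 point per gene, red for the genes described above and grey for the others, filled at an unadjusted p under 0.05. Most fatty acid synthesis genes lie to the right of 0, with a median of 0.25. Of all kept probes 53.2% lie above 0, and 62.8% of those above background on all 8 arrays. The other lists have medians between -0.14 and -0.012 and lie on both sides. With only genes above background on all 8 arrays, the medians of the other lists lie between -0.012 and 0.23.

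Triglyceride assembly genes had a median of -0.049 over 6 kept genes, with 2 above 0. Lpin2, a phosphatidate phosphatase gene, lay at 5.10, 7.05, 6.92 and 6.93 on knockout arrays 1 to 4 and between 7.15 and 7.93 on the control arrays, a difference of -1.17 with a standard error of 0.47 (limma adjusted p = 0.672). Without knockout 1, the lowest of the 8, it was -0.71 (limma adjusted p = 1.00). The acyl-CoA synthetase genes Acsl4 and Acsl3 had differences of 0.49 and 0.47, with standard errors of 0.42 and 0.39. Droplet coat and lipolysis genes had a median of -0.014 over 10 kept genes, 5 above and 5 below 0. G0s2, whose product inhibits the lipase encoded by Pnpla2, was above background on only 5 of the 8 arrays. It lay between 5.003 and 5.72 in the knockout and between 5.57 and 7.30 in the control samples. The difference was -1.11 with a standard error of 0.40 (limma adjusted p = 0.558). Pnpla2 itself, the first triglyceride lipase of the droplet, had a difference of -0.34 with a standard error of 0.19, and the seipin gene Bscl2, which acts in droplet formation, 0.25 with a standard error of 0.13. The droplet genes Plin1, Cidea, Cideb, Cidec and Fitm1 were above background on 0 arrays.

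Uptake and binding genes had a median of -0.012 over 8 kept genes. Fabp5, the epidermal-type paralogue of Fabp4, was above background on all 8 arrays, at 11.74, 11.14, 11.27 and 11.71 on knockout arrays 1 to 4 and at 10.23, 10.49, 11.14 and 10.20 on control arrays 1 to 4. It had the smallest p of the 52 genes, with a difference of 0.95, a standard error of 0.25 and a limma adjusted p of 0.237, and its other kept probe gave 1.00. Without control 3 the difference was 1.14 with a standard error of 0.20 and passed (limma adjusted p = 0.0339), while without any 1 of the other arrays the adjusted p lay between 0.324 and 0.849. In the fit without control 3, 112 of all 9365 kept probes passed, against 50 in the main fit. At an unadjusted limma p under 0.05 there were 2238 of all kept probes, against 595. The lipoprotein receptor gene Vldlr had a difference of 0.62 with a standard error of 0.39, and Fabp3 of 0.59 with a standard error of 0.44. Without control 3, at 5.17 against 6.55 to 6.74 on the other control arrays, the Fabp3 difference was 0.23. Pparg and fat cell regulator genes had a median of -0.052 over 6 kept genes, with Nr1h3, the liver X receptor alpha gene, at -0.91, Cebpb at -0.67 and Rxrb at 0.22, and with standard errors of 0.95, 0.46 and 0.37. Nr1h3 lay between 5.87 and 6.80 on knockout 1, knockout 4 and control 3 and between 8.30 and 9.85 on the other 5 arrays. Fatty acid oxidation genes had a median of -0.14 over 8 kept genes, with Acadl, an acyl-CoA dehydrogenase gene, at 0.57, Slc25a20 at -0.42 and Ech1 at -0.10, and with standard errors of 0.42, 0.69 and 0.15.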

How the data were processed

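The main values are bead intensity signals deposited without normalisation, 1 per probe and array, each with a detection p-value in the deposited file. Intensity values quantile normalised by the authors, as the design text states, were deposited separately on a linear scale and served as an alternative. Scans were read with GenomeStudio, version 3 in the submitters' processing notes. Of 25697 probes, 23978 had 1 symbol in the platform annotation, and 1719 are unnamed here.

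The neqc function of limma 3.58.1 (R 4.3.3) corrected and quantile normalised the signals, with the background taken from the detection p-values and an offset of 16. A probe was kept if at least 4 arrays gave it a detection p under 0.05. The groups were compared across all kept probes by a linear model with moderated variances (eBayes, trend on intensity) and no covariate, with Benjamini-Hochberg adjustment and a threshold of 0.05. The code was tested on simulated data. A gene is represented by its kept probe with the highest mean signal. Errors after ± are standard deviations.

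The genes, lists and tests were chosen with earlier results of these data known, as were the covariate and the fit without 3 arrays, and the left-out arrays for list genes and marker sums without 1 gene were added last. Named by rule were the 10 genes on every probe, and per list the 3 other kept genes with the smallest p. Other genes were named for detection. Col1a2, Col1a1, Reln, Eif2s3y, Itgax, H2-Aa, H2-Ab1 and H2-Eb1 were named after their values were seen. Groups came from the sample titles. No 2 arrays held identical values, with correlations between 0.728 and 0.990. Alternatives covered the background correction, offset, normalisation, filter, variance model, array weights, replicate block and arrays left out. The number of arrays limits the precision.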

Additional observations from a re-analysis of the deposited data

Results flagged for a closer look

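Over 24 genes and 48 groups of 4 arrays, 3 groups held an array far from the other 3. Chance gives about 1 in 20, so the count is close to what chance gives. That rate is nominal, since most of these genes were named for a small p. Plin2 was 6.69 on control 3, against 5.92 to 5.97 on the other control arrays. Lpin2 was 5.10 on knockout 1, against 6.92 to 7.05 on the other knockout arrays. Fabp3 was 5.17 on control 3, against 6.55 to 6.74 on the other control arrays. Control 3 and knockout 1 were among the 3 arrays with the fewest probes above background, and the cause was not tested.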

How the results depend on the processing

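No gene of the 10 passed in any fit except that with array weights, in which 4 did. Over all kept probes, the count of 50 (22 higher and 28 lower) became 108 with median scaling (60 and 48), 95 with cyclic loess (52 and 43), 3632 with array weights, 670 with the detected-probe count as a covariate, and 115 without knockout 1, knockout 4 and control 3. It was 17 when all 8 arrays had to reach a detection p under 0.01 and 22 with a threshold of 0.01. It ranged from 15 to 112 when 1 array was left out. With the replicate number as a block (replicate block) it was 3, and the unadjusted p of Scd1 was 0.0552. Deviations from the group mean correlated at -0.66, 0.60, -0.75 and -0.82 between the same-numbered samples 1 to 4. The leading component (78.2% of variance) set off the arrays with few detected probes, so these values cannot settle whether the numbers mark pairs. No pairing was assumed in the main fit. The median difference of all kept probes was 0.03, and -0.10 with median scaling. Of 126 alternative values of the 6 kept genes, 116 kept their direction and their side of the threshold and 4 passed it, all with array weights. The other 6 turned in direction, none past the threshold. Lpl was 0.28 with median scaling and between -0.046 and 0.0054 with 1 array left out. Pparg was 0.0027 with array weights, 0.16 without knockout 1, knockout 4 and control 3, 0.055 as the mean of its kept probes, and between -0.31 and 0.15 with 1 array left out. The cause was not tested. Sizes also moved with no turn in direction: Dgat2 was -0.14 without background correction, -0.14 with the authors' values, -0.20 with offset 50 and -0.77 with array weights, and Plin2 was -0.12, -0.13, -0.21 and -0.075 in the same fits. Cd36 was between -0.32 and -0.055 with 1 array left out. For 18 named genes of the lists, left-out arrays were tried after seeing the data, none turned in direction, and 1 (Fabp5, without control 3) passed the threshold. In that fit 112 of all kept probes passed. Dgat2 and Plin2 gave no value with the stricter detection filter, nor Dgat2 in 4 of the fits without 1 array, since their probes were not kept there.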

Other observations

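For the 3 kept genes of the set with the smallest p, the 3 named genes whose values over the 8 arrays were most like them were looked up among 8891 named kept probes. Scd1 varied most like Zfp236 (Pearson's r = 0.972), Lrig3 (0.934) and Rsph1 (0.932). Plin2 varied most like Mnt (0.990), Ddx17 (0.969) and Olfr738 (0.964), and Dgat2 most like Mettl24 (0.986), Trim45 (0.979) and Gbp7 (0.976). These are the highest values out of many over 8 arrays that share the variation in detected probes, and are given as a description.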
